A study of Rattus norvegicus with 6 samples.

Results

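The genes described here are 10 feedback targets and effectors of canonical Wnt signalling, taken by symbol from a table of 33350 rat gene models: Axin2, Nkd1, Znrf3, Rnf43, Lef1, Tcf7, Sp5, Notum, Apcdd1 and Ctnnb1. A row was found for 9 of the 10, and Znrf3 was not analysed here. The members were chosen by name, with earlier FPKM values of EN and EC for these genes known, so counts over them are descriptions. The mean FPKM over 6 libraries was to decide between several rows of 1 symbol, but each of the 9 symbols had a single row. The sequenced RNA came from PC12 cells, by their label a rat line of pheochromocytoma, a chromaffin cell tumour of the adrenal gland. In the EN group (3 libraries) the cells had been treated with exosomes, small secreted vesicles, from endothelial cells expressing netrin-1 (NTN1) at a high level. In the EC group (3 libraries) the exosomes came from control endothelial cells. All cells thus received endothelial exosomes, and an untreated group was not analysed here. How many exosomes were given and for how long was not analysed here. The labels do not say whether replicates came from separate cultures, and the p-values therefore reflect only the spread among these libraries, which may be technical.

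In canonical Wnt signalling, a Wnt ligand bound to a Frizzled receptor and an LRP co-receptor stops a cytosolic complex of AXIN, APC and kinases from marking beta-catenin for destruction. Beta-catenin then enters the nucleus and acts with the TCF/LEF transcription factors. Several of the genes switched on in this way encode inhibitors of the pathway, and their transcripts, Axin2 above all, are widely read as a sign of its activity. In peripheral nerve, Wnt signalling is known for roles in Schwann cells, where it has been linked to myelin gene expression.

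The members' promoters were read first for the core of the TCF/LEF motif. The letters searched were CTTTGA and CTTTGT, on both strands, in RefSeq promoters of the GRCr8 assembly that run from 250 bases before to 50 bases after each annotated start. Of the 10 members, 8 had an entry and 6 of these held at least 1 match, against 31.4% of all 33469 promoters. Axin2, Nkd1 and Sp5 are printed because the first was the clearest riser in EN while the others, also well-known targets, had few or no reads. Capitals mark the matches, and each line reads 5′ to 3′ along the gene's strand. The Axin2 promoter (chr10:94398535-94398834, plus strand) holds CTTTGA 2 times, that of Nkd1 (chr19:34722797-34723096, minus strand) holds it 1 time, and that of Sp5 (chr3:75682427-75682726, plus strand) holds 4 matches, of which 1 is on the other strand and appears as its reverse complement.
Axin2: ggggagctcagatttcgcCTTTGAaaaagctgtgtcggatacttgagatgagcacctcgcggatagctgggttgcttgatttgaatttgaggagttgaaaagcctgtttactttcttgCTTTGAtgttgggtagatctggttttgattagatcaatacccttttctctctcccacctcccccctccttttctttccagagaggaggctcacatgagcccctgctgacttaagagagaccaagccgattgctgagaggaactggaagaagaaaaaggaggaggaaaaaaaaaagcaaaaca
Nkd1: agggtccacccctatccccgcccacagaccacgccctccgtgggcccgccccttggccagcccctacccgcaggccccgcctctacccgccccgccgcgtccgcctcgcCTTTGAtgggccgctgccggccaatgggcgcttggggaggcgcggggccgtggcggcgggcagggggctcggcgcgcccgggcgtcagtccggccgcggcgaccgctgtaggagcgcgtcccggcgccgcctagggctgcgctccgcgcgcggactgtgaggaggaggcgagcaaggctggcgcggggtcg
Sp5: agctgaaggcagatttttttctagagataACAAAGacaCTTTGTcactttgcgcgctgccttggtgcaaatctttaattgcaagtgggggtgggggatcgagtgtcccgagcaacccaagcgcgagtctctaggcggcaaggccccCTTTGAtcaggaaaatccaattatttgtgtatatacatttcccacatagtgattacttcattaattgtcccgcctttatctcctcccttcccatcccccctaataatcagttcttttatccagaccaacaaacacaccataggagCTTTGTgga
The matches in Axin2 begin 232 and 132 bases before the start and that in Nkd1 141 bases before it. Apcdd1 and Tcf7 each held 1 CTTTGA and Ctnnb1 held 1 CTTTGT, while neither set of letters was found in these windows of Lef1 and Rnf43. A match is a description of the letters and not of binding. These coordinates belong to GRCr8, whereas those of the expression table below are on Rnor_6.0.

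**Figure D1:**
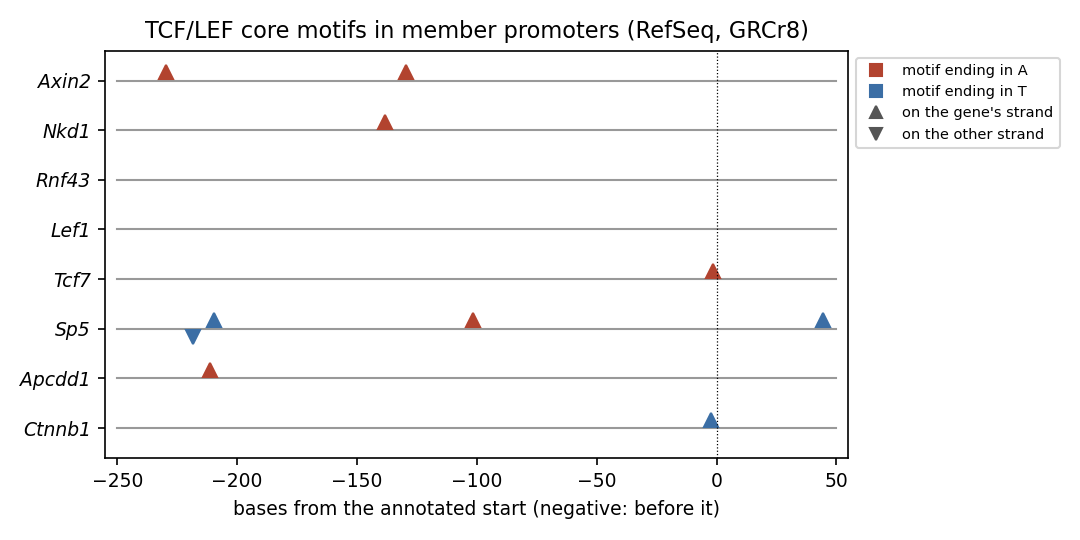
Positions of TCF/LEF core motifs in the 8 member promoters with a RefSeq entry; the horizontal axis is the distance in bases from the annotated start, each line is 1 promoter, colour gives the last base of the motif and the direction of the triangle its strand. Sp5 carries 4 matches and Axin2 carries 2, while Lef1 and Rnf43 carry none in this window.

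Axin2 was higher in EN than in EC, by 1.73-fold in mean FPKM (reads per gene length and per library size). It was the only 1 of the 4 members tested to pass the test. Lef1 stood 1.11-fold higher without passing, and the levels of Tcf7 and Ctnnb1 overlapped between the groups. The other 5 members with a row were under the expression minimum, a mean of 1 FPKM over the 6 libraries, and 2 of them, Sp5 and Apcdd1, had no read in any library. The test was limma on log2(FPKM + 1) across 12198 genes, and a gene passed at an adjusted p (Benjamini-Hochberg) below 0.05. It called 14.4% of all genes tested, 7.24% as higher in EN and 7.14% as lower. The median log2 change was 0.09 over the 4 tested members and -0.0028 over all genes tested.

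The libraries held 15296193 to 19626012 reads, worked back from the FPKM, and the 3 EN libraries were all deeper than the 3 EC libraries. Mitochondrial genes held 4.40%, 4.71% and 5.50% of reads in EN replicates 1 to 3, against 5.43%, 6.09% and 6.08% in EC replicates 1 to 3. The defining chromaffin genes of the labelled cell type were near 0 in both groups. Of 13 chromaffin markers 4 had no read at all, among them Pnmt, and only the granin gene Scg2 (64.7 FPKM in EN and 63.2 in EC) and the tyrosine hydroxylase gene Th (1.66 in EN and 1.29 in EC) reached the minimum. Schwann cell and glial transcripts were more abundant than these, among them Sox10 (104.8 FPKM in EN and 102.5 in EC, named after its value was seen), so by these markers the libraries went against their label in both groups. Of 11 Schwann cell and glial markers in the table, 10 were tested. In EN, 6 of these were lower (60%) and 1 was higher (10%), against 7.14% lower and 7.24% higher among all genes tested. The 11 markers summed to 420.4 to 452.9 FPKM in EN and 477.8 to 486.6 in EC. The calcium-binding protein gene S100b was lower (95.4 FPKM in EN and 131.3 in EC) and the neurotrophin receptor gene Ngfr was higher (114.3 in EN and 99.9 in EC), at limma adjusted p of 0.0070 and 0.032. With 1 library left out, S100b passed in 6 of 6 fits and Ngfr in 2, with adjusted p for Ngfr of up to 0.116. None of the 3 tested endothelial markers passed, with summed levels of 7.15 to 7.87 FPKM in EN and 6.43 to 7.21 in EC, and Cldn5 had no read. The 2 highest endothelial markers were Flt1 (4.10 FPKM in EN and 3.17 in EC) and Tie1 (1.70 in EN and 1.77 in EC). The groups did not overlap for Flt1 (limma adjusted p = 0.052), which passed in 4 of 10 other settings, at 0.0072 at the lowest, and in 0 of 6 fits with 1 library left out. The 3 tested fibroblast markers did not pass either, with Pdgfra at 64.6 FPKM in EN and 65.0 in EC, and Pdgfrb at 8.02 in EN and 8.93 in EC. The part of depth, mitochondrial share or these markers in the results below was not tested. In bulk RNA, fewer cells of a type and less RNA per cell cannot be told apart.

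The members' levels spanned from absent to abundant, in the same order in both groups. Averaged over the 6 libraries, Ctnnb1 stood at 263.1 FPKM, Axin2 at 26.8, Lef1 at 12.9, Tcf7 at 4.48, Rnf43 at 0.899, Notum at 0.123 and Nkd1 at 0.0117. Each of these was above the next in all 6 libraries, with no overlap, down to Nkd1, which shared values of 0 with Sp5 and Apcdd1. Among the 12198 tested genes, whose median level was 13.8 FPKM, Ctnnb1 was above 98.0%, Axin2 above 70.0%, Lef1 above 48.0% and Tcf7 above 22.6%.

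Axin2 encodes a scaffold of the beta-catenin destruction complex, and its transcription in turn responds to beta-catenin, which makes it a negative feedback gene. It lies on chromosome 10 (97212432 to 97239642, plus strand). Its level was 36.2, 35.7 and 30.0 FPKM in EN replicates 1 to 3, from 2527, 2836 and 1983 reads. In EC replicates 1 to 3 it was 21.2, 18.6 and 18.9 FPKM, from 1302, 1123 and 1217 reads. The groups did not overlap, and the lowest EN library, replicate 3, still stood above the highest EC library, replicate 1. The means were 34.0 ± 3.44 FPKM in EN and 19.6 ± 1.39 in EC (SD, n = 3 each). The log2 change was 0.76 (SE 0.084, 95% interval 0.56 to 0.96, limma adjusted p = 0.0052). By size of the log2 change, Axin2 was 27th among the 883 genes that passed as higher. The call held with each library left out in turn, with an adjusted p of at most 0.032 and log2 changes of 0.71 to 0.85. No other gene model in the table overlaps it.

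The rise of Axin2 was set against the other members within each library. Its level relative to Lef1 was 2.60, 2.57 and 2.30 in EN replicates 1 to 3, against 1.77, 1.53 and 1.51 in EC replicates 1 to 3. Relative to Ctnnb1 it was 0.145, 0.135 and 0.104 in EN, against 0.084, 0.071 and 0.072 in EC. Relative to Tcf7 it was 8.39, 7.87 and 6.48 in EN, against 5.22, 3.76 and 4.30 in EC. All 3 ratios were higher in every EN library than in every EC library, by 1.55-fold for Lef1, 1.68-fold for Ctnnb1 and 1.72-fold for Tcf7. The exact two-sided permutation p was 0.1 for each of these 3 comparisons, the smallest that 3 against 3 libraries can give. It was also 0.1 after Benjamini-Hochberg adjustment over the 3. Axin2 was set against the others because it rose, and Tcf7 and Ctnnb1 barely differed, so these ratios mostly restate its own change. They share the same numerator and are not 3 separate results.

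**Figure D2:**
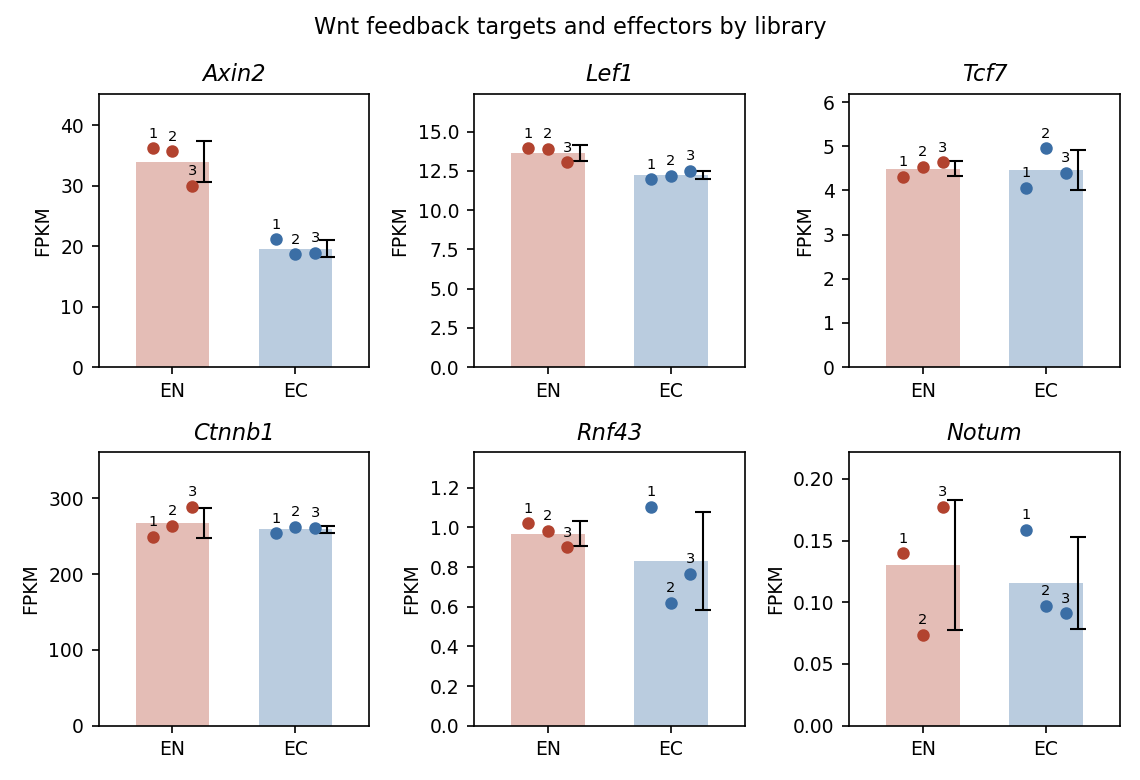
FPKM of 6 members in each library, with EN on the left and EC on the right of each panel; points are libraries numbered by replicate, bars are means, error bars are SD (n = 3) and every vertical axis starts at 0. Axin2 lies at 30.0 to 36.2 FPKM in EN and 18.6 to 21.2 in EC, Lef1 separates by a narrow margin, and the other 4 overlap.

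The transcription factors that carry the signal were present at low to moderate levels. Lef1 (chromosome 2, 236233239 to 236345056), which encodes a DNA-binding partner of beta-catenin and is itself a reported target, had 13.9, 13.9 and 13.0 FPKM in EN replicates 1 to 3, against 12.0, 12.2 and 12.5 in EC replicates 1 to 3. All EN libraries were above all EC libraries, as was the case for 18.6% of all genes tested. The log2 change was 0.14 (SE 0.050, 95% interval 0.03 to 0.26), with an unadjusted p of 0.023 and a limma adjusted p of 0.097, so Lef1 did not pass. With libraries weighted by their quality in limma it did pass, at an adjusted p of 0.024, and in no fit with 1 library left out. Tcf7 (chromosome 10, 37617279 to 37645802), another factor of the family best known from T cells, had 4.31, 4.54 and 4.63 FPKM in EN, against 4.06, 4.96 and 4.40 in EC. The EN values lay inside the range of the EC values, and the log2 change was 0.0084 (95% interval -0.19 to 0.21, limma adjusted p = 0.96). The remaining factors of the family, which are named after inspection of their values, were also at lower levels than Lef1. Tcf7l2 was at 4.91 FPKM in EN and 5.27 in EC, and Tcf7l1, often a repressor, at 3.04 in EN and 2.96 in EC. Neither passed (limma adjusted p of 0.43 and 0.87). By mean FPKM, Lef1 was the most abundant of the 4 TCF/LEF transcripts in both groups.

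Ctnnb1 (chromosome 8, 129617812 to 129627372) encodes beta-catenin, which is regulated mainly through the stability of the protein. It had 249.5, 263.5 and 288.8 FPKM in EN replicates 1 to 3, against 253.5, 262.2 and 261.3 in EC replicates 1 to 3. The widest spread was within EN, whose replicate 1 was the lowest and replicate 3 the highest of all 6 libraries. The log2 change was 0.04 (95% interval -0.09 to 0.17, limma adjusted p = 0.64). On the fold scale of FPKM + 1 this interval runs from 0.940 to 1.13. The protein was not measured here.

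The secreted and membrane inhibitors among the members were scarce. Rnf43 (chromosome 10, 74959285 to 75028951) encodes a ubiquitin ligase that removes Frizzled receptors from the cell surface, and was just under the minimum. It had 1.02, 0.983 and 0.900 FPKM in EN replicates 1 to 3, from 42, 46 and 35 reads. In EC replicates 1 to 3 it had 1.10, 0.620 and 0.766 FPKM, from 40, 22 and 29 reads. The EC values enclosed the EN values, and the difference was 0.11 on the log2(FPKM + 1) scale (exact two-sided permutation p = 0.4). Notum (chromosome 10, 109832981 to 109840047), which encodes a secreted enzyme that inactivates Wnt ligands, had 14 reads in EN and 11 in EC over 3 libraries each. Its level was 0.074 to 0.177 FPKM in EN and 0.091 to 0.159 in EC, and the groups overlapped (exact two-sided permutation p = 0.9). Both genes overlap a small RNA model on the other strand that is listed at 0.

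Nkd1 (chromosome 19, 19436333 to 19509087), which encodes a binding partner and inhibitor of Dishevelled, had 2 reads in EN and 1 in EC, and no difference was detectable at this depth (exact two-sided permutation p = 1). Its relative Nkd2, from the list of cytosolic transducers and named after its value was seen, was at 15.1 FPKM in EN and 14.4 in EC and did not pass (limma adjusted p = 0.51). Sp5 (chromosome 3, 56766475 to 56769277), a transcription factor gene induced by Wnt in many cell types, had no read in 6 libraries, which allows up to 0.0141 FPKM over all of them (3 reads). Apcdd1 (chromosome 18, 58270410 to 58301002), which encodes a membrane inhibitor of Wnt, likewise had none, which allows up to 0.0095 FPKM. These limits cover counting error only.

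**Figure D3:**
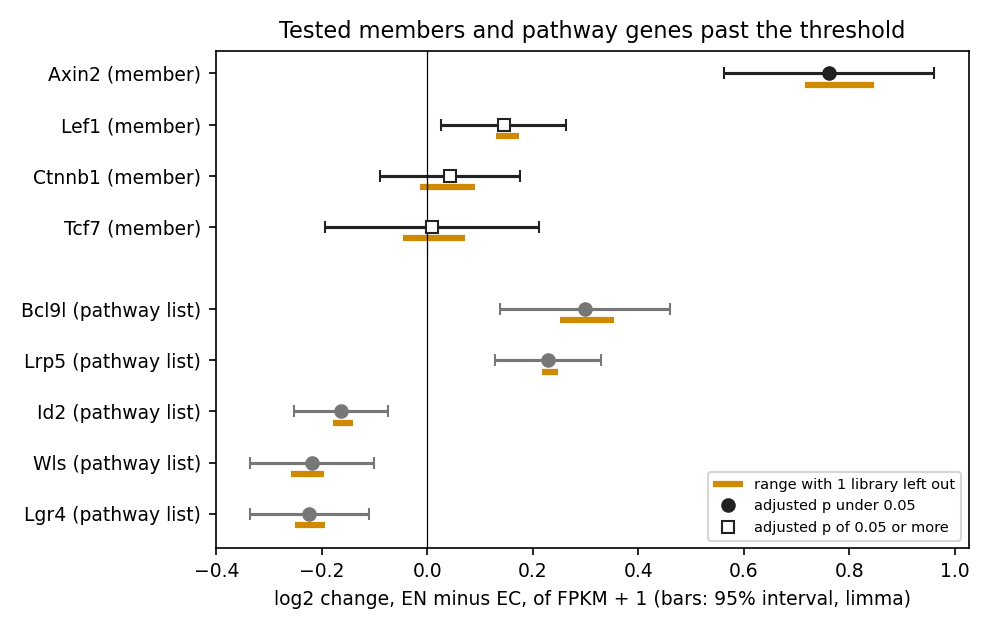
Log2 changes (EN minus EC, on FPKM + 1) of the 4 tested members and of the 5 genes of the pathway lists past the threshold; bars are 95% intervals from limma, filled circles passed, open squares did not, and thick lines below each give the range with 1 library left out. Axin2, at 0.76, lies apart from the other 8 genes, which lie between -0.22 and 0.30.

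The rest of the pathway was read from 7 lists by role. Of 61 tested genes in these lists, 2 were higher in EN, 3 were lower and 56 did not pass, against 14.4% of all genes past the test. The widest log2 change among the 61 was 0.35 and the widest that passed 0.30, against 0.76 for Axin2.

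Wnt ligand transcripts were sparse. Of 19 ligand genes 17 were under the minimum, 5 of them with no read, and the 2 tested did not pass. Wnt9a had 6.00, 5.69 and 3.67 FPKM in EN replicates 1 to 3, against 3.52, 3.81 and 3.87 in EC replicates 1 to 3. EN replicates 1 and 2 were above every EC library and EN replicate 3 was within the EC range (log2 change 0.35, limma adjusted p = 0.18, and 0.019 without EN replicate 3). Wnt5a, a ligand best known for signalling without beta-catenin, was at 2.13 ± 0.173 FPKM in EN and 2.14 ± 0.407 in EC (SD, n = 3 each). Wnt6 was under the minimum, at 0.416 FPKM in EN and 0.303 in EC.

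Among receptors and co-receptors, 1 of 8 tested genes was higher and none was lower, against 7.24% and 7.14% of all genes tested. Lrp5, which encodes a co-receptor of Frizzled, had 21.5, 21.4 and 20.5 FPKM in EN replicates 1 to 3, against 18.0, 18.1 and 17.6 in EC replicates 1 to 3. The groups stood apart, and Lrp5 differed by 0.23 on the log2 scale (SE 0.042, limma adjusted p = 0.020). Its counterpart Lrp6, named after its value was seen, was at 20.3 FPKM in EN and 19.2 in EC and did not pass. The most abundant receptor genes were Ryk (84.1 FPKM in EN and 87.3 in EC), Fzd2 (46.5 in EN and 41.2 in EC) and Fzd1 (27.5 in EN and 30.0 in EC), and none of these 3 passed (limma adjusted p of 0.62, 0.065 and 0.18). Fzd2 and Fzd1 differed in opposite directions with no overlap between the groups, as did 37.9% of all genes tested in 1 direction or the other.

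Of the secretion and extracellular modulator genes, 6 of 23 were tested, 2 were lower in EN and none was higher. Among all genes tested, 7.14% were lower and 7.24% higher. Wls, which encodes the carrier that takes Wnt proteins to the cell surface, had 42.9, 44.1 and 46.1 FPKM in EN replicates 1 to 3, against 48.9, 53.0 and 53.5 in EC replicates 1 to 3. Lgr4, which encodes a receptor for R-spondins and thereby opposes the RNF43 and ZNRF3 ligases, had 27.4, 25.6 and 26.6 FPKM in EN, against 29.9, 32.5 and 31.1 in EC. Both were lower in every EN library, with log2 changes of -0.22 each (SE 0.049 for Wls and 0.048 for Lgr4, limma adjusted p of 0.032 and 0.028). Kremen1, a receptor for DKK inhibitors, was at 9.62 FPKM in EN and 8.69 in EC and did not pass. Transcripts of the R-spondins themselves were at or near 0, with 17 reads for Rspo1, 1 for Rspo3 and none for Rspo2 and Rspo4 over the 6 libraries (chosen after their values were seen).

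In the list of the destruction complex and cytosolic transducers, none of 15 tested genes passed, and the median log2 change was 0.0082. Csnk1a1, the kinase gene that primes beta-catenin for destruction, was at 190.8 FPKM in EN and 187.9 in EC, and Csnk1d at 65.4 in EN and 62.7 in EC. Gsk3b, the kinase gene that completes the mark, was at 44.0 ± 1.41 FPKM in EN and 49.0 ± 1.29 in EC (SD, n = 3 each), with a log2 change of -0.15 that did not pass (limma adjusted p = 0.053, and 0.045 without EN replicate 3). Axin1, Dvl2, Tnks2 and Frat1 had no row under these symbols and were not analysed here.

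Of the nuclear partners of beta-catenin, 1 of 15 tested genes was higher and none was lower, with a median log2 change of 0.13. The shares over all genes tested were 7.24% higher and 7.14% lower. Bcl9l, which encodes a co-activator that bridges beta-catenin to Pygopus, had 25.3, 24.1 and 22.6 FPKM in EN replicates 1 to 3, against 20.9, 19.0 and 18.0 in EC replicates 1 to 3 (log2 change 0.30, SE 0.068, limma adjusted p = 0.033). Each EN library was above each EC library. The highest member of this list, Aes (now Tle5, at 352.0 FPKM in EN and 322.0 in EC), did not pass. Nor did the next, the co-repressor genes Ctbp1 (146.9 in EN and 136.7 in EC) and Tle3 (29.9 in EN and 26.4 in EC). A small nucleolar RNA model lies inside Bcl9l.

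Among other genes reported as beta-catenin targets, none of 11 tested was higher in EN, 1 was lower and 10 did not pass. Of all genes tested, 7.24% were higher and 7.14% lower. The median log2 change of the 11 was -0.05. Without EC replicate 1, 2 of the 11 passed as higher and 1 as lower. Without EN replicate 3, 1 passed as higher, and none passed in the other fits with 1 library left out. The abundant ones were the cyclin D1 gene Ccnd1 (556.9 FPKM in EN and 561.3 in EC), the adhesion receptor gene Cd44 (142.6 in EN and 148.0 in EC) and the AP-1 gene Fosl1 (54.5 in EN and 48.1 in EC), with limma adjusted p of 0.86, 0.32 and 0.056. Id2, which encodes an inhibitor of basic helix-loop-helix factors, had 40.8, 41.4 and 39.2 FPKM in EN replicates 1 to 3, against 45.9, 45.6 and 44.8 in EC replicates 1 to 3. It was lower in every EN library (log2 change -0.16, SE 0.038, limma adjusted p = 0.034). Myc, named after its value was seen, was at 19.5 FPKM in EN and 22.3 in EC and did not pass (limma adjusted p = 0.19).

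Beta-catenin also links cadherins to actin through alpha-catenin. Of 4 tested cadherin and catenin genes none passed. The N-cadherin gene Cdh2 was at 158.6 ± 14.8 FPKM in EN and 172.9 ± 3.51 in EC, Ctnna1 at 153.0 ± 1.55 in EN and 164.9 ± 6.12 in EC, and Ctnnd1 at 62.8 ± 1.05 in EN and 65.2 ± 0.895 in EC (SD, n = 3 each). The limma adjusted p was 0.23 for Cdh2, 0.10 for Ctnna1 and 0.33 for Ctnnd1.

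The log2 changes of the 5 called genes outside the members moved little with 1 library left out. They were 0.22 to 0.25 for Lrp5, 0.25 to 0.35 for Bcl9l, -0.26 to -0.20 for Wls, -0.25 to -0.19 for Lgr4 and -0.18 to -0.14 for Id2. The calls were less stable in these fits with fewer libraries, some of which also called far fewer genes in all. Those of Lrp5, Bcl9l, Wls and Lgr4 were lost when any 1 of EN replicates 1 and 2 and EC replicates 2 and 3 was absent, at a limma adjusted p of 0.063 to 0.113. That of Id2 was lost without any 1 of the 6 libraries, at 0.050 to 0.118. Among named pathway genes that did not pass above, Fosl1 passed in 2 of these fits (lowest limma adjusted p of 0.043). Fzd2 and Cdh2 each passed in 1, at 0.040 and 0.025, besides Wnt9a and Gsk3b as given above.

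**Figure D4:**
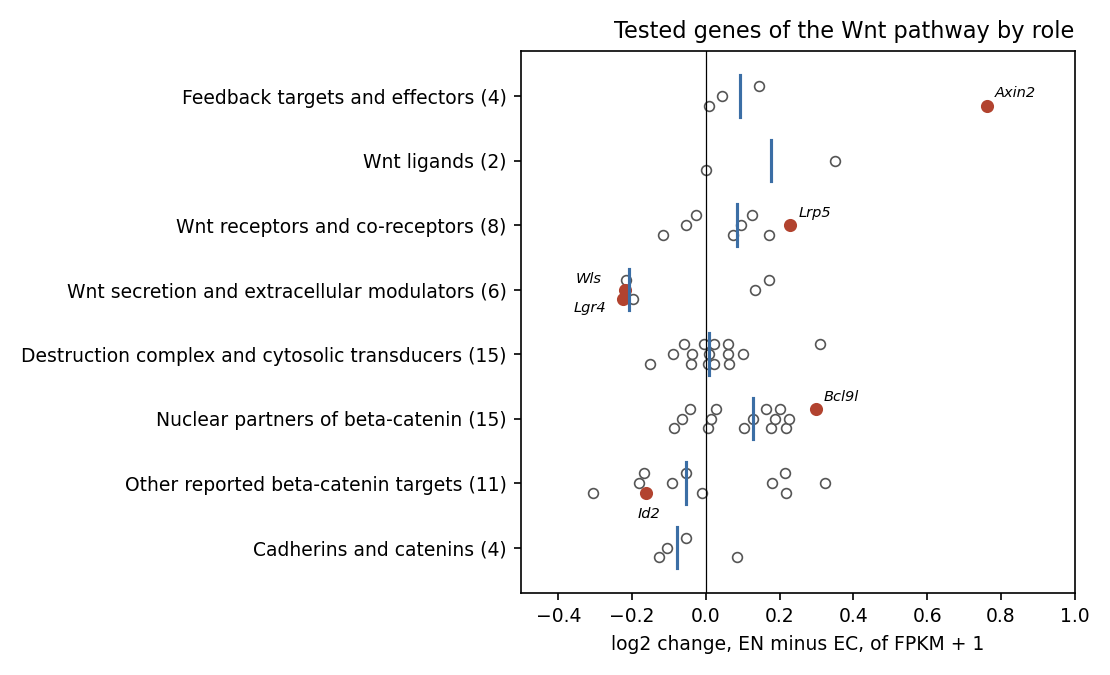
Log2 changes (EN minus EC, on FPKM + 1) of tested Wnt pathway genes in 8 lists, with the number tested in brackets; filled points passed the test, open points did not, and vertical bars are list medians. Axin2 is the point farthest from 0, and the 5 other filled points lie between -0.22 and 0.30.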

How the data were processed

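The authors deposited 1 table of FPKM values for 33350 gene models. The build Rnor_6.0 and the aligner HISAT2 2.0.5 are named per the submitters' processing notes. What counted the reads, on which annotation, strand and filters, was not given in the sources used here. Per the labels' protocols, Trizol RNA went into a TruSeq library kit.

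In every library 100% of non-zero FPKM times gene length were whole multiples of 1 step (within 0.001), which gave the reads. The library size implied by the step was 1.024, 1.015 and 0.995 times the total of these reads in EN replicates 1 to 3. In EC replicates 1 to 3 it was 1.000, 0.987 and 0.997 times that total. The reason for this difference was not tested.

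EN was compared with EC with limma (version 3.58.1, under R 4.3.3), two-sided, on log2(FPKM + 1). Group was the only term, and the fit had a mean-variance trend. The 12198 genes tested averaged 1 FPKM or more over the 6 libraries. Log2 changes on this scale understate the change of low genes; folds are ratios of mean FPKM unless said otherwise. Members under the minimum were compared by exact permutation tests. The script was tested on simulated data.

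The members, lists and tests were chosen with earlier results of these data known. Of 182 list entries, 171 matched by symbol, 3 by an older symbol and 8 had no row. The text names all members, the 3 highest genes of each pathway list and up to 3 past the threshold with the smallest adjusted p, and the 2 highest of each marker list; other genes are said to be named after their values were seen. Libraries were left out without refiltering the genes. Alternatives also took limma voom on the whole reads with trimmed-mean scaling. No group has the 4 samples that a check for outlying samples needs.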

Additional observations from a re-analysis of the deposited data

How the results depend on the processing

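Axin2 passed as the 1 higher member, with 0 lower, in all 17 alternatives, except that weighting libraries in limma made it 2 with Lef1. Its log2 change was 0.71 to 0.85 with 1 library left out and 0.76 to 0.84 in the other 11 settings, with an adjusted p of at most 0.032.

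Over all genes, 883 were higher and 871 lower. With 1 library left out, the higher ranged from 143 to 1030 and the lower from 180 to 1029. They were 177 and 269 without EN replicate 1, 143 and 201 without EN replicate 2, 158 and 180 without EC replicate 2, and 182 and 226 without EC replicate 3. They were 399 and 467 without an expression filter, 510 and 509 without a variance trend, and 1928 and 1921 with library weights. The share higher was 54.4% with median centring and 55.4% on the TPM scale, against 50.3%. With the replicate number as a block, 994 were higher and 913 lower, Lgr4 no longer passed (adjusted p 0.052), and Gsk3b (0.044), Tle3 (0.042) and Fosl1 (0.044) did. The deviations of same-numbered libraries correlated at 0.088, -0.095 and -0.020, so the numbers are not read as pairs, and only EN replicate 1 and EC replicate 1 correlated best with their own number.

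Calls were also lost without an expression filter by Wls (0.058), Bcl9l (0.068) and Ngfr (0.059), on the TPM scale by Id2 (0.060), and without a variance trend by Wls (0.063), Lgr4 (0.054), Bcl9l (0.058), Id2 (0.069) and Ngfr (0.071). Other settings called genes that did not pass above: Gsk3b and Tle3 with a minimum of 5 FPKM, library weights and voom, Fosl1 in these and with median centring, Fzd2 with library weights and voom, Flt1 with quantile normalization, no variance trend, library weights and voom, and Wnt9a, Aes and Cdh2 with library weights.

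Signs turned in these genes, all short of the threshold. With 1 library left out, log2 changes were -0.047 to 0.071 for Tcf7, -0.014 to 0.091 for Ctnnb1, -0.107 to 0.079 for Wnt5a, -0.032 to 0.0080 for Ccnd1, -0.033 to 0.017 for Pdgfra and -0.102 to 0.042 for Tie1. On the TPM scale Ccnd1 was at 0.0052 and Pdgfra at 0.0076. With quantile normalization Wnt5a was at -0.0097 and Pdgfra at 5.8e-04. With library weights Tcf7 was at -0.017, Wnt5a at -0.053 and Tie1 at 4.2e-05. The cause was not tested.

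With a pseudocount of 0.1, the difference of Nkd1, from 3 reads in all, was 0.094, against 0.010. With 1 library left out, the differences were 0.0044 to 0.022 for Nkd1, -0.012 to 0.05 for Notum and 0.03 to 0.22 for Rnf43. Depth limits Nkd1, Notum, Sp5 and Apcdd1, which had 25 reads or fewer each over 6 libraries.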

Other observations

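Of 44 genes of the pathway lists that had reads but were under the expression minimum, 6 had groups that did not overlap, 3 with EN above EC and 3 with EN below EC. That is 13.6%, against 8.22% of all 8297 such genes. The 6 are named here after their values were seen. Wnt5b, a ligand gene, had 21, 17 and 10 reads in EN replicates 1 to 3 (0.466, 0.332 and 0.234 FPKM), against 6, 2 and 2 in EC replicates 1 to 3 (0.151, 0.051 and 0.048 FPKM). Fzd9, a Frizzled receptor gene, had 8, 1 and 4 reads in EN and none in any EC library, which allows up to 0.028 FPKM over the 3 EC libraries (3 reads). Lgr6, a relative of Lgr4, had 1.01, 0.780 and 0.771 FPKM in EN, against 0.582, 0.663 and 0.621 in EC. Ror1, a receptor gene for Wnt5a, went the other way, with 1, 2 and 1 reads in EN and 11, 4 and 2 in EC. So did the homeobox gene Cdx2, with 1, 6 and 2 reads in EN and 8, 7 and 7 in EC, and the alpha-catenin gene Ctnna3, with 0, 6 and 1 reads in EN and 5, 5 and 8 in EC. Groups of 3 libraries that do not overlap always give an exact two-sided permutation p of 0.1, the smallest possible. These 6 genes were picked for not overlapping, so that p adds nothing here. In limma without an expression filter, across all genes with any read, the adjusted p was 0.086 for Wnt5b, 0.097 for Cdx2, 0.20 for Ctnna3, 0.25 for Fzd9, 0.26 for Lgr6 and 0.41 for Ror1, so none passed.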
